A study of Homo sapiens with 12 samples.

Results

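The insulin-like growth factor (IGF) axis was followed through 10 genes: the ligand gene IGF2, the receptor genes IGF1R, IGF2R and INSR, the adaptor genes IRS1 and IRS2, and the binding protein genes IGFBP1, IGFBP2, IGFBP3 and IGFBP4. They are 10 of the 20045 genes named on the array and were listed by symbol, with all probes annotated to them. They were picked by name from the pathway, with no level or fold as a condition, but both comparisons below, GATA4 siRNA against NT siRNA and replicates 4 to 6 against 1 to 3, were already known when they were chosen. The fitted values therefore describe these genes, and counts over them support nothing further. Of the 10, 5 had a probe above background and were tested among 10196 genes, and the other 5 are given as raw signals only.

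The samples were HUH6 cells, a human hepatoblastoma line. In 6 samples GATA4, which encodes a DNA-binding zinc finger protein, was targeted with pooled siRNAs, and the other 6 received a non-targeting (NT) control siRNA. Both siRNAs were given at 0.1 uM with a lipid reagent for 6 h, and RNA was taken 72 h after the start. The labels name 1 cell line and do not say whether replicates were separate cultures, so p-values measure the spread between these samples only.

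IGF2 is a growth factor of fetal tissues that is made in quantity by fetal liver and by many hepatoblastomas. It signals through the tyrosine kinases IGF1R and INSR, whose adaptors IRS1 and IRS2 lead to PI3K, AKT and mTOR, while IGF2R carries it to lysosomes for breakdown. The secreted binding proteins hold IGFs in the extracellular fluid and limit or extend their access to receptors. In liver, IGFBP1 is a fast-responding gene that insulin represses through loss of FOXO1 from its promoter.

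GATA4 itself read 108 to 119 raw units on the GATA4 siRNA arrays, with detection on 0 of 6, against 137 to 169 units on the NT siRNA arrays, with detection on 6 of 6. A probe counts as detected on an array where its detection p-value is under 0.01. The arrays held 16067 to 16804 detected probes. Of the hepatocyte and hepatoblast markers, 8 of the 9 with a probe were detected on all 12 arrays, among them ALB and AFP, and DLK1 was detected on none. In both siRNA groups, replicates 4 to 6 stood apart from replicates 1 to 3, which the first principal component separated (57.3% of the variance). The labels and files give no chip or date for these sets, so some results below, among them those of IGFBP1, are also given within each set.

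IGFBP1 was lower in GATA4 siRNA cells, in 6 of 6 same-numbered pairs, and IGFBP2, IGFBP4, IGF2R and IRS2 did not pass the test in either fit. The mean difference in IGFBP1 was 1.69-fold, 1.42-fold among replicates 1 to 3 and 2.02-fold among replicates 4 to 6. With no block, 0 of the 5 tested members passed (0.706% of all tested genes passed). With the replicate number as a block, 0 were higher and 1 was lower (6.41% of all tested genes passed, 3.77% as lower). The median log2 change was 0.09 over the 5 tested members and 0.0020 over all tested genes.

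IGFBP1, a binding protein secreted by hepatocytes, gave raw signals of 413, 358, 349, 539, 566 and 714 units in GATA4 siRNA replicates 1 to 6. In NT siRNA replicates 1 to 6 it gave 461, 413, 581, 894, 1161 and 1096 units. The normalised log2 values were 8.24, 8.00, 8.03, 8.96, 8.77 and 9.04 in GATA4 siRNA cells, against 8.56, 8.35, 8.88, 9.72, 10.05 and 10.04 in NT siRNA cells. The whole groups overlapped, because the GATA4 siRNA values of replicates 4 to 6 lay among or above the NT siRNA values of replicates 1 to 3. Within each set all GATA4 siRNA samples were below all NT siRNA samples, which held in 1 of the 5 tested members (5.58% of all tested genes kept the groups apart in both sets in 1 direction, 3.14% as lower). Any pairing of samples within the sets would therefore also put IGFBP1 lower in every pair. The groups of 6 did not overlap in 0 of the 5 (1.68% of all tested genes). The log2 of the summed linear signal of the 8 tested hepatocyte and hepatoblast markers overlapped, at 16.33 to 16.53 in GATA4 siRNA cells and 16.39 to 16.55 in NT siRNA cells. Among them ALB (-0.23, limma adjusted p = 0.0058) and FOXA2 (-0.15, limma adjusted p = 0.0366) were lower with the block. Of the 3 tested stellate cell and fibroblast markers, TAGLN was higher with the block (0.24, limma adjusted p = 0.00185), and their summed signal was 12.74 to 13.51 in GATA4 siRNA cells and 12.69 to 13.43 in NT siRNA cells. PDGFRB (0.16, limma adjusted p = 0.145) and ACTA2 (0.00023, limma adjusted p = 0.999) of that list did not pass with the block. Nor did the macrophage markers CD68 (0.19, limma adjusted p = 0.0594) and CD14 (0.14, limma adjusted p = 0.336). The endothelial marker PECAM1 (-0.11) and the cholangiocyte markers KRT19 (-0.04) and SOX9 (-0.06) did not pass either (limma adjusted p = 0.383, 0.747 and 0.584 with the block). The part of these markers in the IGFBP1 difference was not tested. In these bulk samples, fewer cells that express IGFBP1 and less RNA per cell cannot be told apart.

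The IGFBP1 mean was 8.51 ± 0.47 in GATA4 siRNA cells and 9.27 ± 0.76 in NT siRNA cells (log2, SD, n = 6 each). The log2 change was -0.76 (SE 0.31, 95% interval -1.43 to -0.09, limma adjusted p = 0.433) without a block. With the replicate block the SE was 0.090 and the interval -0.95 to -0.57 (limma adjusted p = 1.01e-05). By size it was fall number 8 among the 10196 genes. Leaving out any 1 replicate pair from the blocked fit gave changes of -0.85 to -0.66, and the call remained for all 6 pairs. Within replicates 1 to 3 the means were 8.09 ± 0.13 in GATA4 siRNA cells and 8.60 ± 0.27 in NT siRNA cells (SD, n = 3 each), a log2 change of -0.51 (SE 0.11, limma adjusted p = 0.0296). IGFBP1 was the 1 member of 5 called there (1.64% of all tested genes were called, 1.05% as lower). Within replicates 4 to 6 they were 8.92 ± 0.14 in GATA4 siRNA cells and 9.94 ± 0.19 in NT siRNA cells, a log2 change of -1.01 (SE 0.087, limma adjusted p = 1.58e-06), again the 1 member called (5.4% of all tested genes were called, 3.35% as lower). The difference between these changes, replicates 4 to 6 minus 1 to 3, was -0.51 (SE 0.16). In the limma interaction test it did not pass over all genes (unadjusted p = 0.00329, adjusted p = 0.333), and 8.84% of all tested genes had an unadjusted p under 0.05 there.

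**Figure D1:**
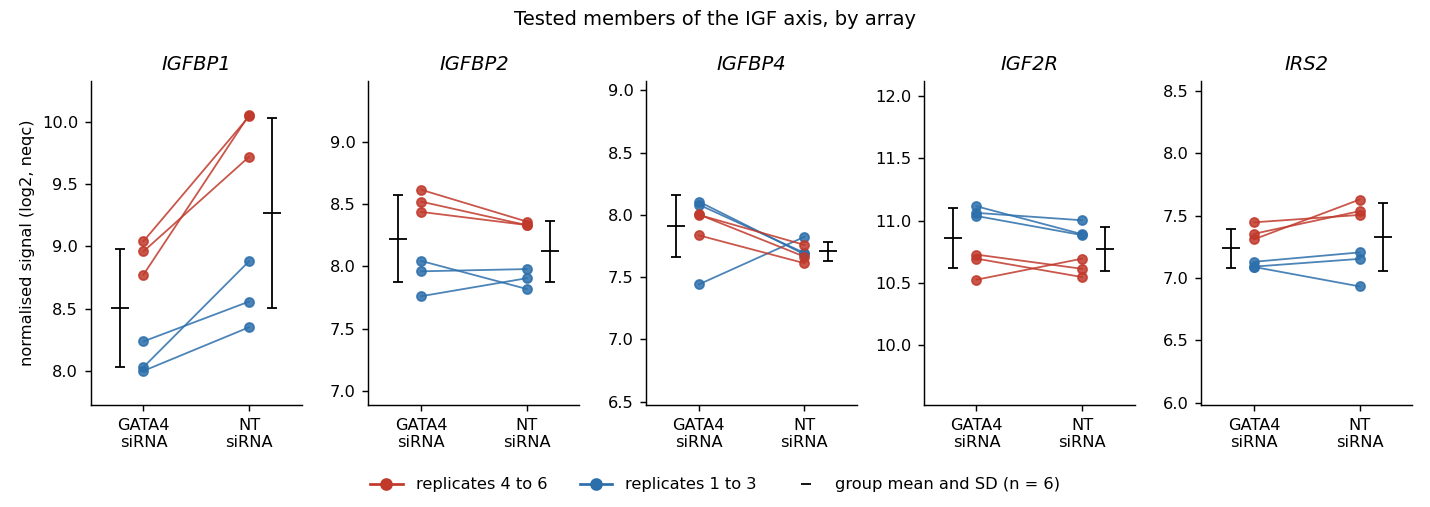
Normalised log2 signal (neqc, y axis) of the 5 tested members on the GATA4 siRNA and NT siRNA arrays, with lines joining samples of the same replicate number, colours for the sets of replicates, and bars for each group's mean and SD (n = 6). All panels span the same number of log2 units. IGFBP1 is lower after GATA4 siRNA in 6 of 6 pairs, and the sets of replicates are apart in IGFBP2, IGF2R and IRS2.

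The other binding proteins with signal were higher on average after GATA4 siRNA, without passing. IGFBP2, the other main IGFBP of fetal liver, read 7.76, 8.24 and 8.62 (lowest, median and highest log2 value) in GATA4 siRNA cells, against 7.82, 8.15 and 8.36 in NT siRNA cells. The groups overlapped, and the log2 change was 0.10 (SE 0.15, limma adjusted p = 0.94 without the block and 0.421 with it), with a blocked 95% interval of -0.04 to 0.24. IGFBP4, which mainly restrains IGF action until it is cleaved, read 7.44, 8.00 and 8.11 in GATA4 siRNA cells, against 7.61, 7.69 and 7.82 in NT siRNA cells. The other 5 GATA4 siRNA samples were above all 6 NT siRNA samples, and GATA4 siRNA replicate 3 was below all of them. The IGFBP4 log2 change was 0.21 (SE 0.10, limma adjusted p = 0.562 without the block and 0.171 with it), with a blocked 95% interval of 0.03 to 0.38. Without replicate pair 3, which holds that low sample, the blocked fit gave 0.32 and passed (limma adjusted p = 0.0075). Leaving out each of the other 5 pairs did not bring a call. Leaving out pairs was chosen after seeing the data, so the pass without pair 3 is only a description.

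The receptor IGF2R and the adaptor IRS2 did not pass in either fit. IGF2R, the mannose 6-phosphate receptor that clears IGF2, read 10.53, 10.88 and 11.12 in GATA4 siRNA cells, against 10.55, 10.79 and 11.00 in NT siRNA cells. Its log2 change was 0.09 (SE 0.11, limma adjusted p = 0.916 without the block and 0.344 with it), and the blocked 95% interval was -0.02 to 0.19. IRS2, the adaptor that carries much of the insulin signal in hepatocytes, read 7.09, 7.22 and 7.45 in GATA4 siRNA cells, against 6.93, 7.36 and 7.63 in NT siRNA cells. Its log2 change was -0.09 (SE 0.12, limma adjusted p = 0.925 without the block and 0.571 with it), with a blocked 95% interval of -0.25 to 0.07. In both genes the groups overlapped. Leaving out 1 sample without the block moved these small changes to between 0.02 and 0.19 for IGFBP2, 0.04 and 0.16 for IGF2R, and -0.17 and -0.03 for IRS2, with 0 calls.

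**Figure D2:**
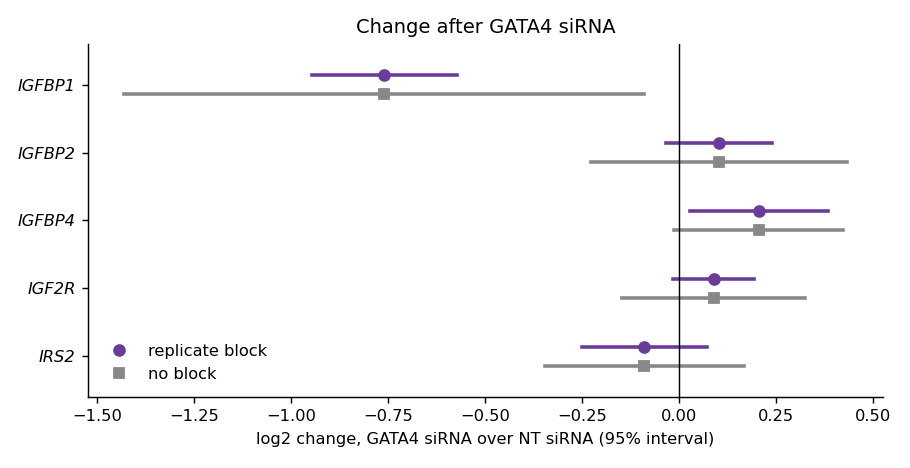
Log2 change after GATA4 siRNA over NT siRNA (x axis) of the 5 tested members, with 95% intervals from the fit with the replicate block (circles) and without it (squares). The blocked interval of IGFBP1 runs from -0.95 to -0.57, and those of IGFBP2, IGF2R and IRS2 include 0.

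Promoters of the members were read from RefSeq (GRCh38.p14), which gave 10 windows for 8 of the 10 genes, each from 250 bases before to 50 after an annotated start. IGF2 and IGFBP1 had no entry. GATA sites (AGATAA or AGATAG or TGATAA or TGATAG, both strands) were in 0 of these windows, against 25% of all 35116 promoters. The insulin response core TGTTTTG, a FOXO-type element, was in 1 (4.92% of all promoters), and TATAAA was in 1 (11.5%). The 2 windows with a match, both of tested members, are printed 5′ to 3′ with the match in capitals, TGTTTTG at position -40 from the start of IRS2 and TATAAA at position -29 from that of IGFBP4. The first is chr13:109786534-109786833 (minus strand) and the second chr17:40443200-40443499 (plus strand).
IRS2: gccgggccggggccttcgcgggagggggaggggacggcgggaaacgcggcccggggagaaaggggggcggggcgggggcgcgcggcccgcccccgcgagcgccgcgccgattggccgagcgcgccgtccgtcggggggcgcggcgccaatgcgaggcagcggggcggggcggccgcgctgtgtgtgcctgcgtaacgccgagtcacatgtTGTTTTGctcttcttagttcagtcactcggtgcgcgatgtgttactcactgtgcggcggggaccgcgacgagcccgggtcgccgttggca
IGFBP4: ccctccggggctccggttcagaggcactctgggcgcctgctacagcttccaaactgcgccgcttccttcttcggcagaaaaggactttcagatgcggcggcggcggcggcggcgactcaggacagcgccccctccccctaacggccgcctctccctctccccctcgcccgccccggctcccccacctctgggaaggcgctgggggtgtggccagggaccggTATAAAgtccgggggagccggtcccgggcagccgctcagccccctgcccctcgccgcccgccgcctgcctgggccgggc
A match describes the letters only, and no match is silent about binding elsewhere. The IRS2 transcript, whose window holds the insulin response core, did not pass the test, and neither did IGFBP4.

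The ligand gene IGF2 was at or near background. The IGF2 probe detected most often read 143, 125, 125, 150, 157 and 145 raw units in GATA4 siRNA replicates 1 to 6, against 119, 120, 127, 145, 145 and 148 units in NT siRNA replicates 1 to 6. It was detected on 2 of 6 GATA4 siRNA arrays and 3 of 6 NT siRNA arrays, all of them in replicates 4 to 6. Another probe read 114 to 146 units in GATA4 siRNA cells, against 116 to 145 units in NT siRNA cells, with detection on 1 array of each group, and the remaining IGF2 probe on none. The read-through gene INS-IGF2, which shares exons with IGF2, had 1 probe with signal. It read 112 to 204.5 units in GATA4 siRNA cells (detected on 3 of 6), against 109 to 140 units in NT siRNA cells (detected on 1 of 6). All of these detections were in replicates 4 to 6, and the 204.5 units were those of GATA4 siRNA replicate 6. NT siRNA replicates 5 and 6 narrowly missed the limit, with detection p-values of 0.0143 and 0.0104. No fold is given for either gene, since most arrays were not above background.

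The kinase receptors were also at or near background. IGF1R, which binds IGF1 and IGF2 with high affinity, read 112 to 126 raw units in GATA4 siRNA cells, against 115 to 123 units in NT siRNA cells, and was detected on 0 of 12 arrays. INSR, the insulin receptor, read 128, 135, 145, 142, 154 and 145 units in GATA4 siRNA replicates 1 to 6, against 116, 132, 136, 129, 128 and 116 units in NT siRNA replicates 1 to 6. The raw signal was higher after GATA4 siRNA in 6 of 6 same-numbered pairs and the normalised value in 5 of 6, all but pair 2. It was detected on 3 of 6 GATA4 siRNA arrays and 0 of 6 NT siRNA arrays, so it was outside the test. The median raw signal over all probes was also higher on the GATA4 siRNA arrays, at 121 to 128 units against 117 to 121 units on the NT siRNA arrays, and its part in the INSR difference was not tested.

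IRS1, the other widely used insulin and IGF adaptor, read 105 to 122 raw units in GATA4 siRNA cells, against 102 to 110 units in NT siRNA cells. IGFBP3, the main IGF carrier of serum, read 108 to 121 and 109 to 129 units at its probes in GATA4 siRNA cells, against 106 to 115 and 106 to 120 units in NT siRNA cells. Both genes were detected on 0 of 12 arrays. IGFBP1 and IGFBP3 are neighbours on chromosome 7 in the RefSeq annotation, and IGFBP1 was detected on 12 of 12 arrays.

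**Figure D3:**
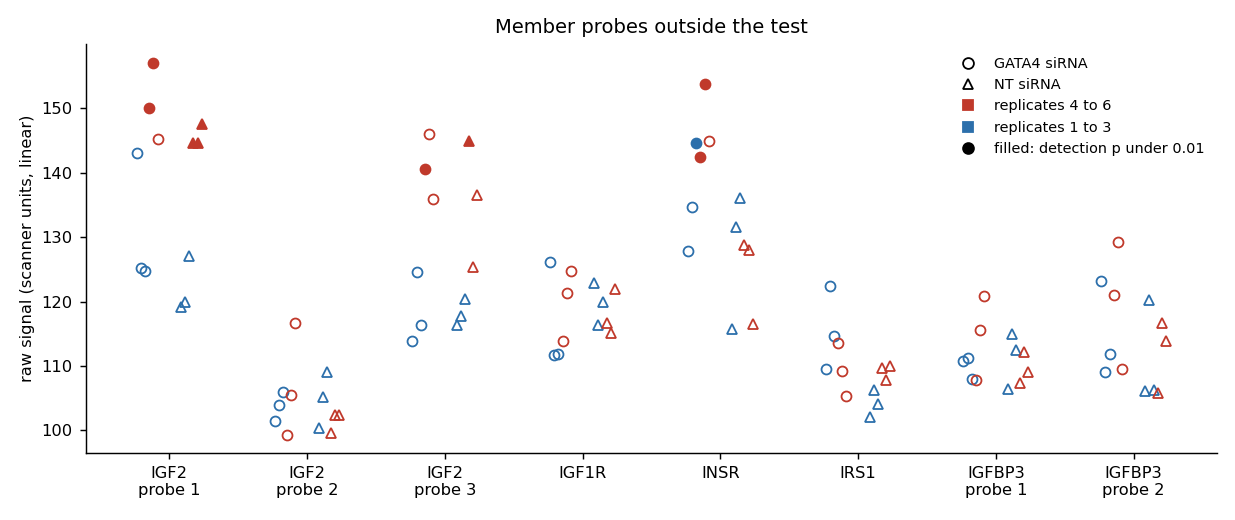
Raw scanner signal (y axis, linear, not starting at 0) of the 8 member probes outside the test, for GATA4 siRNA (circles) and NT siRNA arrays (triangles), coloured by set of replicates and filled where the detection p-value is under 0.01. IGF2 is filled in replicates 4 to 6 only, INSR on 3 GATA4 siRNA arrays, and IGF1R, IRS1 and IGFBP3 on none.

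Replicates 4 to 6 differed from replicates 1 to 3 in 4 of the 5 tested members, by more than the siRNAs did. This was so of genes in general: the median absolute log2 difference over all tested genes was 0.17 between the sets and 0.07 between the siRNAs. These sets were seen in the same arrays, so the values carry no test. IGFBP1 was 2.13-fold higher in replicates 4 to 6 with the siRNA in the fit (log2 difference 1.09), at 8.77 to 10.05 in replicates 4 to 6, against 8.00 to 8.88 in replicates 1 to 3. The sets overlapped for IGFBP1. IGFBP2 was 1.44-fold higher (log2 difference 0.52), at 8.33 to 8.62 in replicates 4 to 6, against 7.76 to 8.04 in replicates 1 to 3. IRS2 was 1.29-fold higher (0.36), at 7.31 to 7.63 in replicates 4 to 6, against 6.93 to 7.21 in replicates 1 to 3. IGF2R was 1.29-fold lower (-0.36), at 10.53 to 10.73 in replicates 4 to 6, against 10.88 to 11.12 in replicates 1 to 3. IGFBP4 had a log2 difference of 0.0071.

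The sets did not overlap in 3 of the 5 tested members, 2 higher and 1 lower in replicates 4 to 6, while 25.7% of all tested genes did not overlap (11.5% higher and 14.3% lower). The IGFBP1 difference between the sets was 0.84 among GATA4 siRNA cells and 1.34 among NT siRNA cells. The IGF2 probe detected most often read 145 to 157 raw units in replicates 4 to 6 and 119 to 143 raw units in replicates 1 to 3, where it was detected on 0 of 6 arrays, and no change is drawn from these values. Some other measures moved with the sets too. The summed signal of the 3 tested of 7 stellate cell and fibroblast markers was 12.69 to 12.91 in replicates 4 to 6 and 13.27 to 13.51 in replicates 1 to 3 (log2), while COL3A1, DCN and LUM were detected on 0 of 12 arrays. That of the 2 tested of 4 macrophage and blood markers was 8.63 to 8.91 in replicates 4 to 6 and 9.36 to 9.61 in replicates 1 to 3, with PTPRC and HBB detected on 0 of 12 arrays. That of the 8 tested of 10 hepatocyte and hepatoblast markers was 16.33 to 16.45 in replicates 4 to 6 and 16.47 to 16.55 in replicates 1 to 3. These markers did not move together. By log2 difference GPC3 (0.03) and FOXA2 (0.08) were higher in replicates 4 to 6, and the others lower, from EPCAM (-0.04) to TTR (-0.47). The sets overlapped in the 1 tested of 4 endothelial markers, at 8.75 to 9.04 in replicates 4 to 6 and 8.66 to 9.12 in replicates 1 to 3. They also overlapped in the sum of the 2 tested of 3 cholangiocyte markers, at 12.71 to 12.89 in replicates 4 to 6 and 12.78 to 13.04 in replicates 1 to 3. Of these, KRT19 was lower (-0.17) and SOX9 higher (0.33) in replicates 4 to 6. The median raw signal over all probes was 120 to 128 units in replicates 4 to 6 and 117 to 123 units in replicates 1 to 3. The part of these measures in the differences was not tested.

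The rest of the pathway was taken from 8 lists with 120 genes, of which 81 were tested. Without a block, 0 were higher and 1 was lower after GATA4 siRNA (0.196% and 0.51% of all tested genes). With the replicate block, 0 were higher and 8 were lower (2.65% and 3.77% of all tested genes). Their median log2 change was -0.02. The 8 lower genes were PDPK1, AKT1, RPS6KB1 and TSC1 of the PI3K, AKT and mTOR list, SOS1 of the receptor adaptors, FOXO1, CTCF and GGA2.

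In the PI3K, AKT and mTOR list, 21 of 30 genes were tested, and 4 were lower with the block (3.77% of all tested genes). PDPK1, the kinase that phosphorylates AKT in its activation loop, was the 1 gene to pass without the block. It read 9.55, 9.69 and 9.72 (lowest, median and highest log2 value) in GATA4 siRNA cells, against 9.89, 9.94 and 10.20 in NT siRNA cells. The groups of 6 did not overlap, as in 1.68% of all tested genes. The log2 change was -0.33 (SE 0.064, limma adjusted p = 0.0309 without the block and 0.000327 with it), and -0.52 at the other tested probe. The unblocked PDPK1 call was kept only when the sample dropped was NT siRNA replicate 4, 5 or 6, and dropping each of the other 9 lost it. The blocked call remained without each of the 6 pairs. Its probes may also bind RNA of a near-identical pseudogene copy.

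AKT1, the kinase at the centre of insulin and IGF signalling, changed by -0.25 (blocked SE 0.053, limma adjusted p = 0.00545 blocked and 0.0586 unblocked), and by -0.23 at the other probe. RPS6KB1, the S6 kinase activated by mTOR, changed by -0.23 (limma adjusted p = 0.00437 blocked and 0.0586 unblocked). Both had non-overlapping groups of 6 (1.68% of all tested genes). TSC1, a brake on mTOR, changed by -0.22 (limma adjusted p = 0.0209 blocked and 0.406 unblocked), and by -0.41 and -0.12 at its other probes, which did not pass (limma adjusted p = 0.0811 and 0.383 blocked). The blocked call of TSC1 ended on leaving out pair 4, 5 or 6.

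Outside that list, SOS1, the exchange factor that loads RAS with GTP, read 5.38, 5.61 and 5.87 in GATA4 siRNA cells, against 5.93, 6.13 and 6.28 in NT siRNA cells. These are low signals, and SOS1 dropped out of the test when detection on all 12 arrays was required. It changed by -0.48 (blocked SE 0.11, limma adjusted p = 0.00901 blocked and 0.0564 unblocked), and was 1 of 14 tested adaptors and receptor brakes to pass. The size for SOS1 depended on the background correction, at -0.18 with none and -0.30 with an offset of 50, and the blocked call was kept in both. FOXO1, the forkhead factor that AKT excludes from the nucleus, changed by -0.26 (limma adjusted p = 0.0201 blocked and 0.681 unblocked). Its change was -0.08 within replicates 1 to 3 and -0.44 within replicates 4 to 6 (limma adjusted p = 0.304 for the difference), and it was the 1 of 9 tested FOXO factors and targets to pass. CTCF, which binds the imprinting control region of IGF2 and H19, changed by -0.24 (limma adjusted p = 0.022 blocked and 0.242 unblocked), the 1 of 8 tested genes of its list to pass. The blocked calls of FOXO1 and CTCF ended on leaving out pair 4, 5 or 6. GGA2, a sorting adaptor for mannose 6-phosphate receptors such as IGF2R, changed by -0.19 (limma adjusted p = 0.0335 blocked and 0.643 unblocked), the 1 of 9 tested genes of its list to pass. That call ended on leaving out any pair but pair 4. With the block 3.77% of all tested genes were lower, and single calls in these lists are not read as results about the lists.

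**Figure D4:**
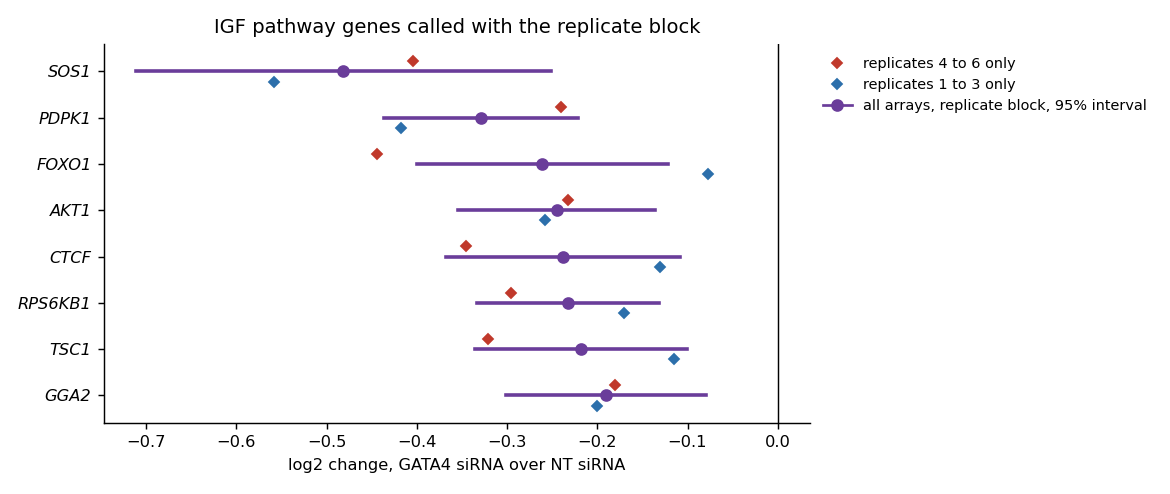
Log2 change after GATA4 siRNA over NT siRNA (x axis) of the 8 pathway genes called with the replicate block, with 95% intervals over all arrays (circles) and the change within each set of replicates (diamonds). All 8 are below 0 over all arrays, from -0.48 for SOS1 (-0.18 with no background correction) to -0.19 for GGA2.

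In the remaining lists 0 genes passed with the replicate block or with no block. Of 6 tested ligands, carriers and proteases, the lowest p-values were those of ADAM17, a membrane sheddase, at 0.19 (limma adjusted p = 0.368 without the block) and of STC2, an inhibitor of IGFBP4 cleavage, at 0.16 (limma adjusted p = 0.0691 with the block). STC2 passed with the set as the block (limma adjusted p = 0.0374), within replicates 4 to 6 (0.22, limma adjusted p = 0.0439) and in the blocked fit without pair 3 (0.20, limma adjusted p = 0.0231). It did not pass without any of the other 5 pairs, nor within replicates 1 to 3 (0.10, limma adjusted p = 0.542). Leaving out each of the 12 samples without the block did not call it either. For ADAM17 the groups of 6 were narrowly apart, at 7.1308 to 7.44 in GATA4 siRNA cells, against 6.97 to 7.1304 in NT siRNA cells. Of 12 RAS and MAPK genes the lowest p-values were those of HRAS (0.12, without the block) and SPRY1 (0.12, with the block). Of 2 growth hormone genes tested, STAT5B had the lowest p in both fits (-0.15).

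After taking away the mean of each set, the tested genes whose pattern over the 12 arrays was most like that of IGFBP1 were S100A13 (Pearson's r 0.99), FST (0.96) and AHNAK (0.95). The 12 arrays share the siRNA contrast, so a gene that fell with GATA4 siRNA in both sets scores high. S100A13, a calcium-binding protein, changed by -0.27 (limma adjusted p = 0.0444 without the block and 0.00167 with it), and its unblocked call was lost on dropping each sample except NT siRNA replicate 2. FST, the activin antagonist follistatin, changed by -0.33 (limma adjusted p = 0.202 without the block and 0.0236 with it), a blocked call that ended on leaving out pair 4, 5 or 6. AHNAK, a large scaffold protein, changed by -0.52 (limma adjusted p = 0.47 without the block and 1.56e-06 with it), and by -0.30 as the mean of its tested probes. The change of FST was -0.18 with no background correction. No such genes are given for IGF2, since 0 of its probes were tested.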

How the data were processed

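Per the labels' protocols, total RNA from 12 HUH6 samples was measured on Illumina HT-12 v4 arrays. For each probe and array the deposited non-normalised table holds an intensity on a linear scale and a detection p-value, per the file headers. The submitters' processing notes name GenomeStudio. The lowest intensity is 82.2. The authors' normalised table holds log2 values within 0.0141 of a quantile normalisation of these intensities, and the sources used here do not state its method. The deposited series table holds the same values.

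Signals were background-corrected and quantile normalised with neqc (offset 16) of limma 3.58.1 in R 4.3.3. Gene names came from the platform's probe annotation, updated by gene ID to RefSeq symbols (GRCh38.p14). Of 48106 probes, 30112 had 1 symbol. Tests were limited to probes detected (p under 0.01) on 6 or more of the 12 arrays, and the brightest tested probe stood for its gene, giving 10196 genes. Groups were compared with lmFit and eBayes (mean-variance trend, two-sided, Benjamini-Hochberg over all tested genes, threshold 0.05), and the fit was tested on simulated data. Replicate numbers 1 to 6 occur in both groups. Deviations from the group means correlated between samples of the same number at Pearson's r of 0.548 to 0.604 over genes. The numbers were used as pairs in the blocked fit. About the means of group and set these correlations were -0.0604 to 0.0119. The likeness of pairs thus comes from the 2 sets of replicates, and within a set the numbers gave no ground for pairing. Precision is limited by how many arrays there are.

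The members and lists were chosen with earlier results of these data known. The text names all members, the called genes of each list or else the gene with the lowest p, and the 3 genes most like IGFBP1. Alternatives changed the background correction, the source of the values, the scaling, the detection filter, the probe taken per gene, the eBayes trend and the block, added array weights, and dropped single samples or pairs.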

Additional observations from a re-analysis of the deposited data

Results flagged for a closer look

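Of the member probes outside every fit, that of INSR was detected on more GATA4 siRNA arrays (3) than NT siRNA arrays (0), with a median raw signal of 144 units against 128 units. The same held for the INS-IGF2 probe, with 3 arrays against 1 and a median of 140 units against 126 units. All of these INS-IGF2 detections were in replicates 4 to 6, where NT siRNA replicates 5 and 6 narrowly missed the detection limit. Neither difference was tested. Only probes with more detections and a higher median raw signal after GATA4 siRNA were flagged, so the opposite direction could not appear. The IGF2 probe detected most often went the other way in detection, on 2 GATA4 siRNA arrays against 3 NT siRNA arrays. The median raw signal over all probes was also higher on the GATA4 siRNA arrays, at 121 to 128 units against 117 to 121 units. In the 40 groups of 6 samples of the 20 tested member and list genes named, 0 samples passed Dixon's outlier test. Each group mixes the 2 sets of replicates, which stood apart in several of these genes, so the usual chance rate of about 2 does not apply and the 0 says little.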

How the results depend on the processing

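The replicate block called 1 member (IGFBP1, -0.76) where the fit without it called 0, and 8 list genes where that fit called 1. Over all 10196 tested genes the block called 654 and the fit without it 72. Blocking on the set of replicates alone gave 1 member (IGFBP1, -0.76) and 10 list genes. That fit also called more of all tested genes than the replicate block did. Fits within 1 set called 1 member each, IGFBP1, at -0.51 in replicates 1 to 3 and -1.01 in replicates 4 to 6. They called 1 list gene in replicates 1 to 3 and 10 in replicates 4 to 6 (1.64% and 5.4% of all tested genes). In replicates 1 to 3 alone the direction turned for IRS2 (0.0062) and STAT5B (0.036), neither called. With the replicate block, every normalisation tried called 1 member, IGFBP1: at -0.64 with no background correction and with the deposited table, at -0.76 with scaling to equal medians and at -0.71 with an offset of 50. The list genes called were then 8, 8, 3 and 8. These blocked alternatives, and leaving out pairs, were chosen after seeing the data. Without pair 1, 2, 3, 4, 5 or 6 in turn, the block called 8, 7, 8, 5, 4 and 4 list genes, with IGFBP1 at -0.85, -0.84, -0.74, -0.76, -0.66 and -0.71. It called 1 member each time but for 2 without pair 3, where IGFBP4 was 0.32 (0.16 to 0.32 over the 6). Without a block, leaving out 1 sample called 0 members and 0 to 2 list genes. Scaling to equal medians called 0 list genes, and eBayes without a trend and array weights called 2 each. Over all tested genes, scaling and eBayes without a trend called fewer than 72, and array weights called more. Most of these list counts have no share of all tested genes beside them. Their rises and falls are therefore not read as specific to the pathway.

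Between the sets, replicates 4 to 6 minus 1 to 3, IRS2 was 0.22 and IGFBP2 0.39 without background correction and in the deposited table. Within 1 siRNA, IRS2 was 0.27 with GATA4 siRNA and 0.46 with NT siRNA, and IGFBP1 was 0.84 with GATA4 siRNA and 1.34 with NT siRNA. The test of whether the siRNA change differed between the sets called 0 genes in limma (901 at an unadjusted p under 0.05), 2 with no background correction and 2 with the deposited table. The cause of these shifts was not tested. The 5 members near background cannot be compared at this signal.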
